A study of Mus musculus with 12 samples.

Results

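The 5 genes examined here encode the sarcomeric myosin light chains *Myl1*, *Myl2*, *Myl3*, *Myl4* and *Mylpf*. They were chosen by name: every array probe whose platform gene symbol is 1 of the 5 was taken, which gave 6 probes of the 25697 on the array (5 of 16593 gene symbols). *Myl1* had 2 probes, called the brighter and the second probe below, and each other gene had 1. Of the 6 probes, 5 passed the filter on dim probes, which kept a probe detected (p-value under 0.05) on 3 or more of the 12 arrays, and the *Myl3* probe did not.

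The RNA came from C2C12 cells, a mouse myoblast line that can fuse into myotubes, transfected with ZBED6 siRNA or with negative control siRNA. Each treatment was collected after 48 h and after 96 h in 3 biological replicates, so that 12 Illumina MouseRef-8 v2 arrays formed 4 groups of 3. All groups were the same line, received a transfection and were kept in growth medium with fetal bovine serum, and *Zbed6*-silencing used a pool of siRNAs, so single siRNAs could not be compared. The array carried no probe with the symbol *Zbed6*. *Igf2*, the known ZBED6 target, differed by 0.35 on the log2 scale between silenced and control cells at 48 h (adjusted p = 0.073) and was higher by 0.45 at 96 h (adjusted p = 0.023, limma). *Zc3h11a*, whose intron holds *Zbed6*, differed by -0.44 (adjusted p = 0.056) and -0.11 (adjusted p = 0.55).

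Each sarcomeric myosin is a pair of heavy chains whose lever arms are wrapped by an essential and a regulatory light chain. *Myl1* encodes the essential light chains of fast skeletal fibers, *Myl3* that of slow skeletal fibers and the ventricle, and *Myl4* that of the atrium and of embryonic skeletal muscle. *Mylpf* encodes the regulatory light chain of fast skeletal fibers and *Myl2* that of slow fibers and the ventricle, and phosphorylation of the regulatory chains by light chain kinases tunes contraction.

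The 5 genes lie on separate chromosomes. In the RefSeq annotation of GRCm38.p6, *Myl1* spans chr1:66924295-66947932, *Myl2* chr5:122092724-122113473, *Mylpf* chr7:127208848-127214288, *Myl3* chr9:110763678-110769802 and *Myl4* chr11:104546017-104587215. The promoter windows of the 4 measured genes, 250 bases before to 50 after an annotated start, are shown because *Myl2*, *Myl4* and the second *Myl1* probe moved in the same direction with time. Capitals mark the E-box letters CANNTG, the motif that myogenic factors such as MyoD bind, in *Myl2*, *Mylpf* and *Myl1*, and, in *Myl4*, matches to GCTCG, the ZBED6 core motif, on the opposite strand, where it reads CGAGC. *Myl2* has 2 annotated starts, and its windows are chr5:122092474-122092773 (+) and chr5:122092939-122093238 (+). The others are chr7:127211358-127211657 (+) for *Mylpf*, chr1:66945007-66945306 (-) for *Myl1* and chr11:104550413-104550712 (+) for *Myl4*. The spans of *Mylpf*, *Myl1* and *Myl4* given above reach upstream of these windows. The windows of these genes thus need not cover every start, and other starts were not searched.
Myl2 first start: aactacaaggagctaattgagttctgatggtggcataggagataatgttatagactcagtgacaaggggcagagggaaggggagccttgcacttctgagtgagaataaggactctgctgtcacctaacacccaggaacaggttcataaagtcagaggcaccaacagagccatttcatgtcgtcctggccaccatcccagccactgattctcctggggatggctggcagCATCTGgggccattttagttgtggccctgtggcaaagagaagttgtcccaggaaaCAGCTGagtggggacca
Myl2 second start: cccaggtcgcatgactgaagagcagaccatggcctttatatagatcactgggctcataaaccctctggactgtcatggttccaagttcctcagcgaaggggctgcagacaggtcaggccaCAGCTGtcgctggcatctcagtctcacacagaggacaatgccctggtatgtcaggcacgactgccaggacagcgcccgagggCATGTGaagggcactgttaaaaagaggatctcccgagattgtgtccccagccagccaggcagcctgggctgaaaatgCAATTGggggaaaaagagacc
Mylpf: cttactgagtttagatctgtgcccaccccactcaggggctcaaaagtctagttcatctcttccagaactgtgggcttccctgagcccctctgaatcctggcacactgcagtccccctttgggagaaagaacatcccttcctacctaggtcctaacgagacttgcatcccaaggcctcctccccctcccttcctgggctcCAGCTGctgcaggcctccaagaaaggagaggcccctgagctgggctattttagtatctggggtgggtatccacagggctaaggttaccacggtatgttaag
Myl1: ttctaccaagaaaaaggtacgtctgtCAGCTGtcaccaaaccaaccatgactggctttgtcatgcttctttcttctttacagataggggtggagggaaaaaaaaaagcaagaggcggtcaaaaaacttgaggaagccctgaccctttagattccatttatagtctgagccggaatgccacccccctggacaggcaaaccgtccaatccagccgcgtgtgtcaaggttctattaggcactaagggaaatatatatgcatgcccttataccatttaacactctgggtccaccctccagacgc
Myl4: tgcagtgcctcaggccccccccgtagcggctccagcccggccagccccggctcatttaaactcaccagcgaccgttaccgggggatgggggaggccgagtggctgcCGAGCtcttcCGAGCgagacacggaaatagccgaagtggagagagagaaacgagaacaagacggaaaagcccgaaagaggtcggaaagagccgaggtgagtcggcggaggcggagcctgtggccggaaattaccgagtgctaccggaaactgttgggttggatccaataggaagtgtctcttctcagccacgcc

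Both strands were searched. The E-box letters occurred 2 times in the first and 3 times in the second *Myl2* window, once each in those of *Mylpf*, *Myl1* and *Myl3*, and 0 times in that of *Myl4*. Of 32851 RefSeq promoter windows of 300 bases, 72.3% held at least 1 E-box match, so its presence does not set these genes apart. GCTCG was found 2 times in the *Myl4* window, at bases -144 and -134 counted from the start, and 0 times in the windows of the other 4 genes, against 29.8% of all windows with a match. A match to the MEF2 motif was found in 0 of the members' windows (3.19% of all windows), and a CArG box, the serum response factor motif, only in that of *Myl3* (1.63% of all windows). No match says only that these letters are not in the window.

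The arrays were alike in quality. Between 12078 and 12558 probes were detected per array, the median raw signal lay between 76.5 and 90.8, and the brightest probe of an array between 40234 and 53486. Of the 6 skeletal muscle lineage markers 5 were on the array and all 5 were detected on 12 arrays (*Des*, *Myod1*, *Chrna1*, *Tnnt3*, *Ckm*). Markers of other cell types were partly present. Detected were *Myh6* and *Nppb* of the cardiac list (12 arrays each) and *Tnni3* (4), *Acta2* and *Smtn* (12 each) and *Tagln* (6) of smooth muscle, *Lpl* (12) of adipocytes, *Cd14* (11) of leukocytes, and *Krt8* (12) and *Cdh1* (11) of epithelium. Of the same lists, *Nppa*, *Nkx2-5* and *Ryr2* (heart), *Cnn1* and *Myh11* (smooth muscle), *Adipoq*, *Fabp4* and *Plin1* (adipocyte), *Ptprc* and *Lyz2* (leukocyte) and *Krt18*, *Pecam1*, *Cdh5* and *Kdr* (epithelium and endothelium) were detected on 0 arrays.

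*Myl2*, the slow regulatory light chain, changed more with time than the other measured members. Its raw signal was 103, 101 and 102 in the control arrays of 48 h and 92.7, 159 and 115 in the silenced arrays of 48 h. At 96 h it was 1159, 1608 and 1619 in control and 2619, 2158 and 2053 in silenced cells. The 48 h values were dim, between 92.7 and 159 against array medians of 76.5 to 90.8, although the probe was detected on all 12 arrays, and every 96 h array lay above every 48 h array.

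On the normalized log2 scale (background corrected, quantile normalized) *Myl2* stood at 5.85 ± 0.15 (SD, n = 3) in control and 6.16 ± 0.57 in silenced cells at 48 h. It reached 10.41 ± 0.39 and 11.01 ± 0.21 at 96 h. In control cells the rise with time was 4.56 (SE 0.25, 23.6-fold, adjusted p = 7.84e-08, limma over 12 arrays), the 11th smallest p of 8858 genes, where 32.9% of all genes passed, 17.7% higher and 15.2% lower, and 25.8% had higher values without overlap. In silenced cells it was 4.86 (SE 0.25, 29.0-fold, adjusted p = 4.31e-08), the 9th smallest p, where 28% of all genes passed, 15.6% higher and 12.4% lower, and 22.8% had higher values without overlap. The fold rests on how the dim 48 h signal is corrected. Without background correction it was 13.2-fold in control and 17.4-fold in silenced cells, with an offset of 50 it was 15.2-fold and 19.7-fold, and in the authors' processed values 4.21-fold and 5.94-fold, with adjusted p-values from 4.54e-12 to 9.06e-06 over the alternatives that kept all arrays in control cells and from 5.54e-13 to 2.69e-06 in silenced cells.

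Within a time, the silenced arrays of 96 h all lay above the control arrays, with *Myl2* higher by 0.60 (SE 0.19, 1.52-fold). Non-overlapping higher values were found for 16.1% of all genes at 96 h. The difference did not pass the threshold after adjustment (adjusted p = 0.089), where 6.83% of all genes passed. It passed without background correction (adjusted p = 0.028) and with an offset of 50 (adjusted p = 0.034), and the adjusted p ranged from 0.028 to 0.16 over the alternatives that kept all arrays. At 48 h the groups overlapped, and the difference of 0.30 (SE 0.24, adjusted p = 0.45) rested on silenced replicate 2: without it the difference was -0.028. In bulk RNA, fewer cells of a type and less RNA per cell cannot be told apart.

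**Figure D1:**
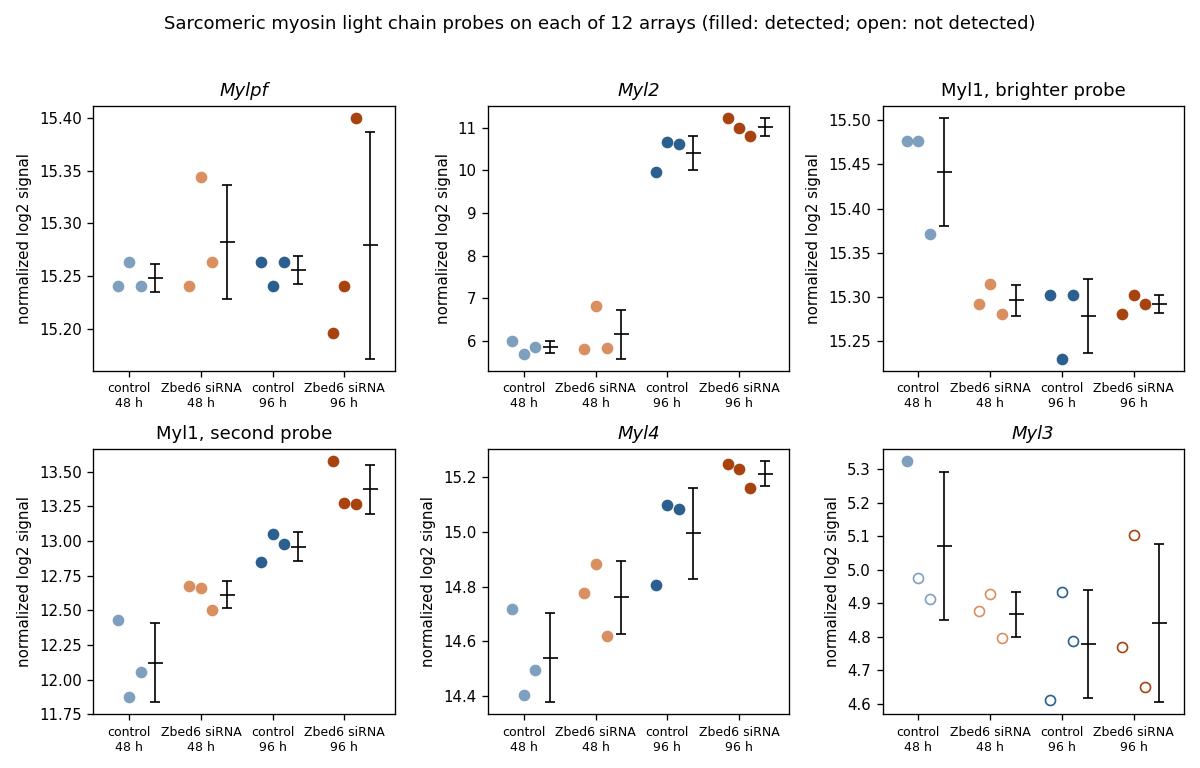
Normalized log2 signal (y axis) of the 6 light chain probes on each of the 12 arrays, grouped by treatment and time (x axis). Points are arrays, filled where the detection p-value was under 0.05, the black bars are the mean and SD of 3 arrays, and each panel has its own y range: *Myl2* rose from about 5.70 to 6.82 at 48 h to 9.96 to 11.24 at 96 h, whereas *Mylpf* and the brighter *Myl1* probe stayed at the top of the scale.

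*Mylpf*, the fast regulatory light chain, was already among the brightest probes at 48 h. Its raw signal was 35344, 37719 and 35890 in control and 36066, 44234 and 41803 in silenced cells at 48 h, and 40804, 38822 and 39065 in control and 39553, 39556 and 45827 in silenced cells at 96 h. The raw values of control cells at 96 h lay above those at 48 h without overlap. Those of time in silenced cells and of silencing at both times overlapped. After normalization the values overlapped between all groups, and the probe ranked 2nd to 18th of 25697 on its array. Its log2 differences were 0.034 (SE 0.082, adjusted p = 0.83) for silencing at 48 h, 0.023 (SE 0.084, adjusted p = 0.89) for silencing at 96 h, 0.0075 (SE 0.076, adjusted p = 0.95) for time in control cells and -0.0035 (SE 0.076, adjusted p = 0.98) for time in silenced cells. The study's RNA-seq of pooled replicates called *Mylpf* higher after silencing at both times, while its own array value at the earlier time was not significant. The array values here therefore do not show that *Mylpf* RNA was unchanged.

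Among the essential light chains, *Myl4*, the embryonic and atrial form, rose modestly with time. Its raw signal was 22563, 20061 and 21408 in control and 25404, 32348 and 29046 in silenced cells at 48 h. At 96 h it was 30397, 35196 and 34833 in control and 40768, 38882 and 38790 in silenced cells. On the normalized scale the order of the groups was control 48 h (14.54 ± 0.16, SD, n = 3), silenced 48 h (14.76 ± 0.13), control 96 h (14.996 ± 0.17) and silenced 96 h (15.21 ± 0.046). The first pair and the middle pair of neighbours in this order overlapped, and the last pair did not, whereas the raw values of the first pair did not overlap either.

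*Myl4* was higher at 96 h than at 48 h by 0.46 in control cells (SE 0.11, 1.37-fold, adjusted p = 0.0065) and by 0.45 in silenced cells (SE 0.11, 1.37-fold, adjusted p = 0.0074), where 32.9% and 28% of all genes passed. Silencing shifted it by 0.22 at 48 h (SE 0.11, adjusted p = 0.24, groups overlapping) and by 0.22 at 96 h (SE 0.099, adjusted p = 0.20, groups not overlapping, as for 16.1% of all genes in this direction), and neither passed the threshold. In the silenced arrays of 96 h *Myl4* was the 13th to 20th brightest probe, against 52nd to 84th in the control arrays of 48 h.

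The 2 *Myl1* probes disagreed. The brighter probe, which stood for the gene in the fit by gene, gave raw signals of 40234, 41122 and 38824 in control and 38389, 43058 and 42270 in silenced cells at 48 h, and 41158, 38811 and 40139 in control and 41646, 42153 and 41736 in silenced cells at 96 h. It was the brightest probe of the array on 2 of the control arrays of 48 h and ranked between 1st and 15th on all 12. The second probe gave 4813, 3713 and 4002 in control and 5779, 6720 and 6933 in silenced cells at 48 h, and 8088, 8580 and 8008 in control and 12705, 10110 and 10699 in silenced cells at 96 h. The 4 groups of the second probe did not overlap with each other, in the order control 48 h, silenced 48 h, control 96 h, silenced 96 h, while all 12 raw values of the brighter probe lay between 38389 and 43058.

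For the second probe the normalized log2 means were 12.12 ± 0.28, 12.61 ± 0.097, 12.96 ± 0.10 and 13.37 ± 0.18 in that order (SD, n = 3). It rose with time by 0.84 in control cells (SE 0.13, 1.79-fold, adjusted p = 6.16e-04, limma by probe) and by 0.76 in silenced cells (SE 0.13, 1.69-fold, adjusted p = 0.0011), where 32.3% and 28.2% of the 12332 probes tested passed and 24.1% and 20.8% had higher values without overlap. Its silencing differences were 0.49 at 48 h (adjusted p = 0.070, SE 0.14) and 0.41 at 96 h (adjusted p = 0.063, SE 0.11), and neither passed the threshold, against 7.14% and 5.68% of probes that did. Groups that did not overlap, with the silenced arrays higher, were found for 16.5% of probes at 48 h and 15.6% at 96 h. Both differences lay near the threshold: the adjusted p ranged from 0.019 to 0.12 at 48 h and from 0.017 to 0.10 at 96 h over the alternatives that kept all arrays, and leaving out 1 array gave 0.041 to 0.18 and 0.072 to 0.19. At 48 h the difference was 0.65 without control replicate 1, the only array whose removal took it past the threshold (adjusted p = 0.041), and 0.37 without control replicate 2 (adjusted p = 0.18).

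For the brighter probe no comparison passed. Its log2 difference with time in control cells was -0.16 (SE 0.069, adjusted p = 0.086), and after silencing it was -0.15 at 48 h (adjusted p = 0.29, SE 0.083) and 0.014 at 96 h (adjusted p = 0.93, SE 0.075). After normalization the control arrays of 48 h lay above the other group in both of the first 2 comparisons, without overlap. Of all genes, 22.4% did so for time in control cells and 17.4% for silencing at 48 h in the lower direction. The raw signals of the brighter probe overlapped in both comparisons. The direction of *Myl1* with time in control cells thus turned on the probe. With the mean of both probes it was 0.34 (adjusted p = 0.010), and in the authors' processed values of the brighter probe it was -0.18 (adjusted p = 0.020).

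**Figure D2:**
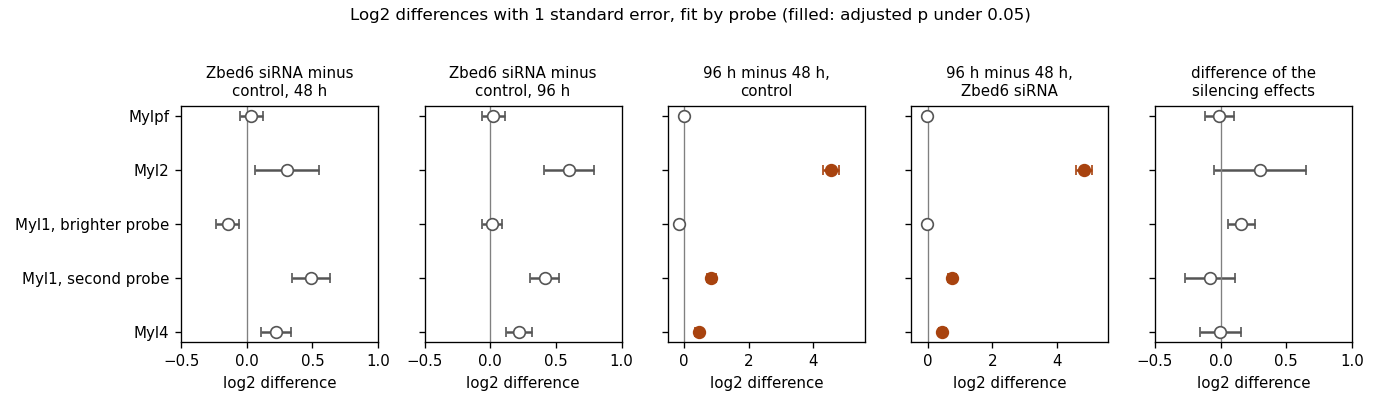
Log2 differences (x axis) with 1 standard error from the fit by probe, for 5 light chain probes (rows) in 5 comparisons (panels), filled where the adjusted p was under 0.05. The time panels have a wider x range: *Myl2*, *Myl4* and the second *Myl1* probe passed in both, and 0 of the 5 probes passed for silencing or for the difference of the silencing effects.

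The probes lay at different places on the intensity scale. The brighter *Myl1* probe lay at 78.0% to 100% of the highest signal of its array, *Mylpf* at 81.1% to 91.7% and *Myl4* at 48.8% to 84.1%, whereas the second *Myl1* probe lay at 9.03% to 26.0% and *Myl2* at 0.218% to 5.37%. Quantile normalization gives a rank the same value on each array, and the brightest 10 ranks spanned 15.48 to 15.28 on the log2 scale. The brighter *Myl1* probe and *Mylpf* held ranks 1 to 15 and 2 to 18, with values from 15.48 down to 15.20. A probe within these ranks could move by little. The array maximum itself varied, at 42563 to 48502 in the silenced and 40234 to 42894 in the control arrays of 48 h, ranges that overlapped. At 96 h it was 46234 to 53486 in the silenced and 43631 to 48219 in the control arrays. In control cells the maxima of 96 h lay above those of 48 h without overlap. Whether signals near the top of the scale still followed the amount of RNA was not tested.

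**Figure D3:**
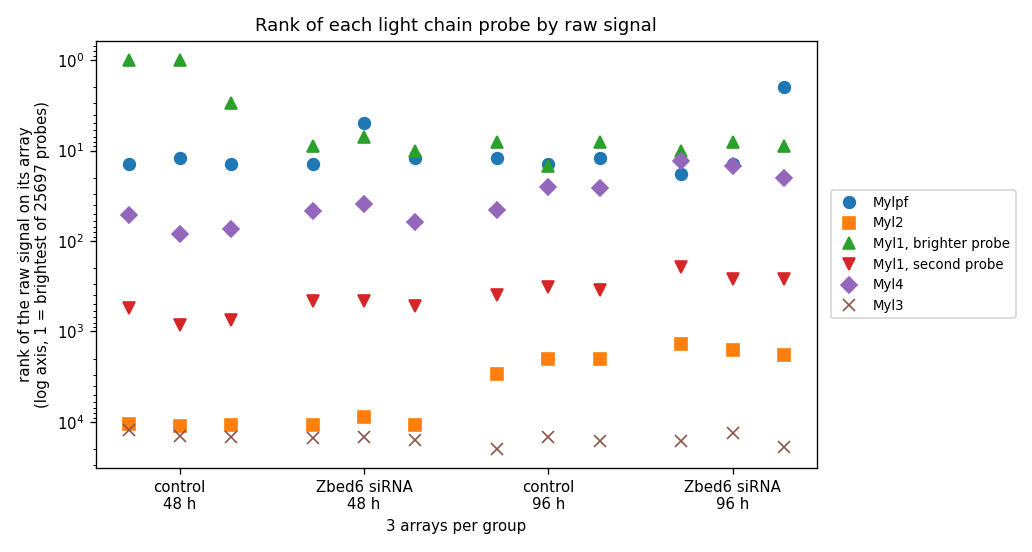
Rank of each light chain probe by raw signal on its array (y axis, log scale, 1 is the brightest of 25697 probes), with 3 arrays per group along the x axis. *Mylpf* and the brighter *Myl1* probe stayed within ranks 1 to 18. Over both treatments, the second *Myl1* probe ranked 455 to 858 at 48 h and 194 to 391 at 96 h. *Myl2* ranked 8891 to 11173 at 48 h and 1359 to 2955 at 96 h.

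*Myl3*, the slow and ventricular essential light chain, was not measured above background. Its raw signal lay between 63.2 and 82.7 on the 12 arrays, and its detection p-value was under 0.05 on 1 array, control replicate 1 of 48 h. It has only a bound in every other group, and no fold is given.

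The difference between the silencing effects of the 2 times did not pass for any measured member. It was 0.30 for *Myl2* (SE 0.35, adjusted p = 0.64), -0.0027 for *Myl4* (SE 0.15, adjusted p = 0.99), -0.011 for *Mylpf* (SE 0.11, adjusted p = 0.96), 0.16 for the brighter *Myl1* probe (SE 0.098, adjusted p = 0.35) and -0.077 for the second (SE 0.19, adjusted p = 0.84). Over all genes 4.49% passed, and 3.07% of probes. A p above the threshold does not show that the effects were equal.

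Profiles were compared over the 12 arrays by the root mean square difference of mean-centred log2 values, among 7497 genes detected on all arrays. *Tcap*, which encodes the Z-disc protein telethonin, was the nearest to *Myl2* at 0.56, followed by *Gzme* at 1.08 and *Fxyd6* at 1.09. *Tcap* was higher at 96 h than at 48 h by 3.52 in control and 3.97 in silenced cells. The nearest genes were *Heyl* (0.085), *Amigo1* (0.098) and *Baalc* (0.10) for *Myl4*, and *Rilpl1* (0.093), *Pink1* (0.13) and *Fabp3* (0.13) for the second *Myl1* probe. The flat profiles of the brighter *Myl1* probe and of *Mylpf* lay nearest to *Cd81*, *Rela* and *Calm3* and to *Tnnc1*, *P4hb* and *Tuba1b*, at distances of 0.041 to 0.049 and 0.052 to 0.056, beside their own spread over the arrays of 0.077 and 0.054 (SD).

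The sarcomeric heavy chains, to which the light chains bind, rose with time. Of 9 listed genes 5 were measured, and 4 of 5 were higher at 96 h in control cells and 5 of 5 in silenced cells, against 17.7% and 15.6% of all genes, with a median log2 difference of 1.37 and 1.58 against 0.016 and 0.019 over all genes. *Myh1* (2.26 in control, adjusted p = 6.40e-08) and *Myh4* (2.28, adjusted p = 2.77e-06), the fast heavy chains, changed most, and *Myh6* and *Myh8*, the cardiac alpha and perinatal heavy chains, rose by 1.37 and 1.09. *Myh7*, the slow heavy chain, had a difference of 0.57 that did not pass in control cells (adjusted p = 0.097) and rose by 1.45 in silenced cells. After silencing, 0 of 5 passed at 48 h, where 10.2% of all genes passed, and 2 of 5 at 96 h (6.83% of all genes), *Myh7* (0.60, adjusted p = 0.038) and *Myh8* (0.43, adjusted p = 0.043), with a median of 0.43 against 0.0045 over all genes.

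Of 6 measured light chain kinase and phosphatase genes, 2 were called higher and 2 lower at 96 h than at 48 h in both treatments (of all genes 17.7% and 15.2% in control, 15.6% and 12.4% in silenced cells), and 1 was higher after silencing at 96 h (3.44% of all genes). The 2 called higher with time were kinases that passed the filter through the 96 h arrays, so they had to differ and no fold is given. *Mylk3*, the cardiac light chain kinase, was detected on 0 of 3 control and 1 of 3 silenced arrays at 48 h, and *Mylk* on 1 of 3 and 0 of 3, whereas both were detected on all 96 h arrays. *Mylk3* was higher after silencing at 96 h by 0.55 (adjusted p = 0.046). *Ppp1cb*, the catalytic subunit of myosin phosphatase, and *Rock1*, which inhibits that phosphatase, fell with time by 0.61 and 0.53 in control cells. Of the 6, 0 passed for silencing at 48 h, where 10.2% of all genes passed. Among 4 other measured light chains, the ubiquitous regulatory chains *Myl12a* (0.48, adjusted p = 4.46e-04) and *Myl12b* (0.53, adjusted p = 0.0035) were higher at 96 h in control cells, *Myl6b* in silenced cells (0.65, adjusted p = 0.029), against 17.7% and 15.6% of all genes. For silencing 0 of 4 passed at either time, against 10.2% and 6.83% of all genes.

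Of 5 measured genes for myosin assembly and binding, 3 were higher and 0 lower after silencing at 96 h, with a median of 0.58. They were *Smyd1* (0.64, adjusted p = 0.024) and *Unc45b* (0.58, adjusted p = 0.039), a methyltransferase and a chaperone needed for thick filament assembly, and *Mybpc1* (0.81, adjusted p = 0.046), the slow myosin binding protein C, which was also higher at 48 h (0.67, adjusted p = 0.021). Directional calls were 4.63% higher and 5.61% lower of all genes at 48 h, and 3.44% and 3.39% at 96 h. With time in control cells, 3 of the 5 were called higher and 2 lower, against 17.7% and 15.2% of all genes. *Mybpc1* rose by 0.84 (adjusted p = 0.0043) and *Mybpc2* was also higher (adjusted p = 0.018), whereas *Unc45b* and *Smyd1* fell by 0.56 and 0.53. In silenced cells 2 of the 5 were called higher with time and 0 lower, against 15.6% and 12.4% of all genes.

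**Figure D4:**
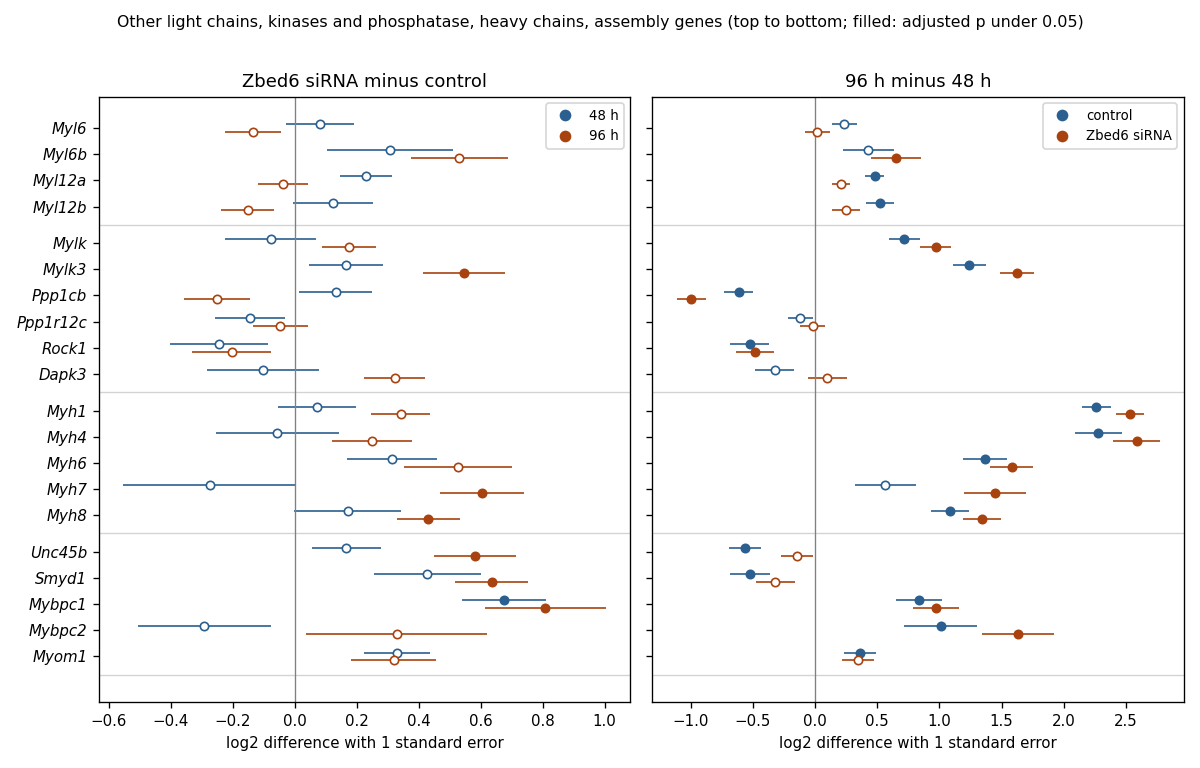
Log2 differences (x axis, bars are 1 standard error) of other light chains, light chain kinases and phosphatase, sarcomeric heavy chains and myosin assembly genes, from top to bottom, for silencing (left, 48 h and 96 h) and time (right, control and Zbed6 siRNA cells), filled where the adjusted p was under 0.05. The heavy chains *Myh1* and *Myh4* lay near 2.26 and 2.28 with time in control cells, and *Mybpc1* passed in all 4 comparisons, while *Mylk* and *Mylk3* were detected on at most 1 of 3 arrays of each 48 h group.

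Other genes of fast fibers and of slow and cardiac fibers, and the myogenic regulators, were set beside the light chains. Of all genes, 4.63% were called higher after silencing at 48 h and 3.44% at 96 h. Of 7 fast fiber genes, 1 was higher after silencing at 48 h and 2 at 96 h, *Tnnt3*, the fast troponin T, at both times (0.53 and 0.58, adjusted p = 0.028 and 0.020) and *Casq1*, fast calsequestrin, at 96 h (0.61, adjusted p = 0.027). Of 7 slow and cardiac fiber genes, 3 were higher at 48 h, *Tnni1* (0.50, adjusted p = 0.014), *Myoz2* (0.66, adjusted p = 0.017) and *Casq2* (0.56, adjusted p = 0.019), and 1 at 96 h, *Atp2a2* (0.35, adjusted p = 0.048). Medians were -0.026 and 0.29 for the fast and 0.25 and 0.31 for the slow list at 48 h and 96 h. Of 6 measured myogenic regulators only *Mef2c* passed for silencing, at 48 h (0.91, adjusted p = 0.0058), and *Myod1* did not pass in any comparison.

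Markers of the muscle lineage and of other cell types were read beside the time and silencing differences. In the skeletal muscle list *Ckm* fell with time by 1.21 in control and 0.73 in silenced cells (adjusted p = 8.50e-05 and 0.0031, limma). *Ckm* was higher after silencing at 96 h by 0.81 (adjusted p = 0.013). *Tnnt3* rose with time by 0.40 and 0.44 (adjusted p = 0.016 and 0.010), and *Des*, *Myod1* and *Chrna1* did not pass in these comparisons. The summed level of the 3 measured cardiac markers was 8.07 to 8.22 and 8.07 to 8.41 in control and silenced cells at 48 h, and 8.11 to 8.45 and 8.49 to 8.98 at 96 h on the log2 scale. Within it *Myh6* rose with time by 1.37 in control and 1.58 in silenced cells (adjusted p = 1.01e-04 and 2.86e-05), *Nppb* fell by 1.32 and 0.94 (adjusted p = 4.49e-05 and 6.18e-04), and *Nppa*, *Nkx2-5* and *Ryr2* stayed undetected. Of the smooth muscle markers, *Tagln* was called higher with time in both treatments. The shares of all genes called so were 17.7% in control and 15.6% in silenced cells. *Tagln* was detected on only 6 arrays, so its call may rest on the filter, and no fold is given. *Smtn* was higher after silencing at 96 h (0.45, adjusted p = 0.029), where 3.44% of all genes were called higher. With time *Smtn* differed by -0.41 in control cells (adjusted p = 0.0088), where 15.2% of all genes were called lower, and by 0.11 in silenced cells (adjusted p = 0.48). The summed level of the smooth muscle markers was 15.2 to 15.5 over all arrays. *Cd14* was lower after silencing at 96 h, by -0.56 (adjusted p = 0.026), and rose with time by 0.51 in control and 0.40 in silenced cells (adjusted p = 0.013 and 0.046). The only measured adipocyte marker, *Lpl*, went from 8.36 to 8.52 at 48 h to 10.4 to 10.7 at 96 h in control cells, with its defining markers undetected. In silenced cells *Lpl* rose with time by 1.05 (adjusted p = 1.90e-05). After silencing *Lpl* was higher at 48 h by 0.98 (adjusted p = 0.0019), where 4.63% of all genes were called higher. At 96 h its silencing difference was -0.055 (adjusted p = 0.81). The part of these shifts in the light chain differences was not tested.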

How the data were processed

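Total RNA of 12 C2C12 samples was hybridized to Illumina MouseRef-8 v2 arrays. The authors deposited raw bead intensity per probe, not normalized, and per the file headers a detection p-value for each probe and array. The deposited processed log2 values, made by the authors with lumi in FlexArray, served only as an alternative, since their exact scale is not stated.

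Intensities were corrected by normexp with the background taken from the detection p-values (neqc, offset 16), quantile normalized and log2 transformed with limma 3.58.1 in R 4.3.3. Probes detected (p-value under 0.05) on 3 or more arrays were kept (13095, of which 12332 had a gene symbol from the platform annotation), and the brightest kept probe stood for each of 8858 genes. Some related genes had other kept probes, whose values are not given here. Among them, *Unc45b* and *Mef2c* had 3 kept probes each, and *Mybpc1*, *Myh8* and *Atp2a2* had 2 each. Silencing was tested on the 6 arrays of each time, and time and the interaction in 1 fit of 4 group means, by limma's moderated test with Benjamini-Hochberg adjustment over all genes (threshold 0.05) and again by probe. The scripts were tested on simulated data. The number of arrays, 3 per group, limits the precision.

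The members and gene lists were chosen with earlier results of these data known. Named are all members, up to 4 genes of a list with the smallest p, and the 3 genes nearest to a member. RefSeq tables (GRCm38.p6) gave loci and promoters for 5 of 5 members. The slide of each array was not given, and no slide block was fitted. Protein sequences were not used here. Alternatives were the authors' values, other background, scaling, filter, probe and fit settings, each array left out, and a replicate block.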

Additional observations from a re-analysis of the deposited data

How the results depend on the processing

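*Myl2*, *Myl4* and the second *Myl1* probe kept their direction and stayed past the threshold for time in both treatments under every alternative in which they were fitted. The counts of called genes moved more. With main counts of 907 and 605 for silencing at 48 h and 96 h and 398 for the difference between the times, no background correction gave 1380, 1060 and 704, and median scaling 468 at 48 h and 123 for the difference. An offset of 50 gave 1031 at 96 h and 657 for the difference, the authors' values 642 for the difference, no filter 366 at 96 h, and all 12 arrays 1397 at 48 h. No shared deviation of same-numbered samples was seen, with correlations from -0.22 to 0.17. Whether same-numbered samples were set up together is not given by the labels. The replicate block gave 222 genes at 96 h and 206 for the difference, and changed no call of a member. Leaving out 1 array gave 250 to 543 genes for silencing at 48 h, 90 to 408 at 96 h, 2139 to 2585 for time in control cells, 1860 to 2214 in silenced cells, and 89 to 321 for the difference. The fits that left out 1 array had fewer arrays, and the causes of these moves were not tested.

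Reversals among the members concerned mostly differences near 0. In the authors' values *Mylpf* was -0.063 for silencing at 48 h, -0.032 and 0.079 for time in control and silenced cells and 0.11 for the difference, and *Myl1* 0.065 for time in silenced cells. With the mean over probes *Myl1* was 0.17 for silencing at 48 h and 0.34 and 0.38 for time in control and silenced cells. Leaving out 1 array gave ranges across 0 for *Myl2* at 48 h (-0.028 to 0.47), *Myl1* at 96 h (-0.010 to 0.026), *Mylpf* at 96 h (-0.037 to 0.065), *Myl1* and *Mylpf* for time in silenced cells (-0.012 to 0.0052 and -0.064 to 0.038) and, for the difference, *Myl4* (-0.099 to 0.065), *Mylpf* (-0.072 to 0.030) and the second *Myl1* probe (-0.23 to 0.046).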
